A study of Mus musculus with 6 samples.

Results

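Methylation of lysine 20 of histone H4 is written, removed and read by a small set of proteins, and 7 genes of this set were followed in muscle stem cells (MuSCs, also called muscle satellite cells) that had lost *Kmt5b* or not. They were chosen by name. *Kmt5a*, *Kmt5b* and *Kmt5c* encode the methyltransferases, *Phf8* and *Phf2* encode demethylases, and *L3mbtl2* and *L3mbtl3* encode MBT proteins, whose MBT repeats bind mono- and dimethylated lysines. All 7 were among the 14546 genes listed in the deposited table, and all 7 passed the filter on low values. *Kmt5b* is itself the gene that was targeted.

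The marks on H4K20 are built in steps. KMT5A adds the first methyl group (H4K20me1), and KMT5B and KMT5C add the following ones (H4K20me2 and H4K20me3), with H4K20me3 typical of heterochromatin. KMT5A is degraded in S-phase, when the ubiquitin ligase subunit DTL recognises it on chromatin-bound PCNA, so that newly made histones pass through replication unmethylated at this position. The mark is tied to the cell cycle in further ways, since ORC1 at replication origins, 53BP1 at broken DNA and condensin II in mitosis all bind methylated H4K20.

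The study used PRO-seq, which captures nascent RNA from engaged RNA polymerases after a short run-on with biotin-labelled nucleotides. Nuclei came from proliferating cultured MuSCs. The 3 Ctrl libraries carry the genotype Pax7CreERT/Suv4-20h1WT and the 3 Kmt5bsKO libraries Pax7CreERT/Suv4-20h1KO, where Suv4-20h1 is the earlier name of *Kmt5b*. Both groups therefore carry the Cre recombinase, which is expressed from *Pax7* and activated by tamoxifen, and the mutant carries floxed *Kmt5b* alleles that are lost only in cells with *Pax7* activity. All animals were adult mice on a C57BL/6 background, and the methods describe cells from limb and trunk muscle that were enriched on a Percoll gradient and magnetic beads before culture. Whether a library holds cells of 1 mouse or of several is not given in the sources used here, so p-values measure the spread between these libraries.

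Polymerase density was given for a TSS region, the first 400 nt of a transcript, as RPM (reads scaled to a fixed total per library), and for the gene body that follows it, as TPM, which also divides by length. Between 926904 and 3246052 reads lay in the TSS regions of a library and between 7425424 and 16249136 in its gene bodies, and the median tested gene held 35 to 107 TSS reads and 203 to 468 gene body reads. Gene body values of 7 satellite cell and myoblast markers (*Pax7*, *Myod1* and others) summed to 1532 to 2729 TPM, against 2.50 to 5.05 TPM for 3 endothelial markers. For 3 fibro-adipogenic markers they summed to 4.98 TPM in Ctrl replicate 3 and up to 17.5 TPM in Ctrl replicate 2. Of 4 macrophage and leukocyte markers, *Cd68* held 214 to 402 TPM. *Ptprc*, *Adgre1* and *Csf1r* were not among the genes listed, and *Cd68* alone does not show such cells. Muscle fibre markers summed to 645 to 1266 TPM in Ctrl and 1512 to 2044 TPM in Kmt5bsKO libraries, without overlap. Taken singly, the groups were apart for the gene bodies of *Acta1*, *Mb* and *Tnnt3*. They overlapped for *Ckm*, *Myh1*, *Myh2*, *Myh4* and *Pvalb*. Gene body values were without overlap, in either direction, at 21.4% of all genes tested. All 5 fibre markers tested were higher in Kmt5bsKO libraries by either measure, but 0 had a limma adjusted p under 0.1. The 4 Y-linked genes summed to 24.1 TPM in Ctrl replicate 3 and to 40.3 and 42.4 TPM in Kmt5bsKO replicates 1 and 2, but to 0.62, 0.20 and 2.28 TPM in the other libraries, so the sex of the cells differs between libraries within each group.

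The promoters of the 3 methyltransferases are shown because the position of the start sites sets what the TSS region of each gene measured. The sequences are from RefSeq (GRCm38.p6) and hold the 250 bases before a start site on the sense strand. Capitals mark matches on either strand to the CCAAT box (CCAAT), to the CHR motif of cell cycle genes (TTTGAA or the palindrome TTCGAA) or to the E2F motif (TTTCCCGC, TTTGGCGC, TTTCGCGC or TTTGCCGC), and no matches overlapped.
*Kmt5b*, first start site, chr19:3767171-3767420, plus strand: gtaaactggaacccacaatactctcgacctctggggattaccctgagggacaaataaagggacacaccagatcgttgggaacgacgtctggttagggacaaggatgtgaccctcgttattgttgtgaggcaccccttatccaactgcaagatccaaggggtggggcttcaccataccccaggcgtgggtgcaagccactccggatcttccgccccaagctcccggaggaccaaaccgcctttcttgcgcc
*Kmt5b*, second start site, chr19:3767639-3767888, plus strand: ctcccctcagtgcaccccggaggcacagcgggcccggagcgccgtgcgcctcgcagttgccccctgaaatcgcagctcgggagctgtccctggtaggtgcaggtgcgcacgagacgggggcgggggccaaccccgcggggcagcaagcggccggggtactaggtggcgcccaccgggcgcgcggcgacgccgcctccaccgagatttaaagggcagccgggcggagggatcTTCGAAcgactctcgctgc
*Kmt5a*, chr5:124439680-124439929, plus strand: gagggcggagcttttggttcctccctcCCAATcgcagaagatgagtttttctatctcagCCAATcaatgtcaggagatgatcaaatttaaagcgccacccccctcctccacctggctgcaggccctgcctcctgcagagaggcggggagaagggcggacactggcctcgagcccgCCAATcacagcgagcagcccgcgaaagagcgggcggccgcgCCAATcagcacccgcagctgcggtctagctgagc
*Kmt5c*, chr7:4739877-4740126, plus strand: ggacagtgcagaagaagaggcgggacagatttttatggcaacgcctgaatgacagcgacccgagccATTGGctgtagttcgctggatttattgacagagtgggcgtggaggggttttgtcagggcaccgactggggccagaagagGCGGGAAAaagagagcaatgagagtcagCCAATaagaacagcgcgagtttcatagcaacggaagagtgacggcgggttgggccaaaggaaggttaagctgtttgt

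A CHR motif stood before the second *Kmt5b* start site, 4 CCAAT boxes before that of *Kmt5a*, and 2 CCAAT boxes and an E2F motif before that of *Kmt5c*. Of the 32851 mouse promoters in the RefSeq table, 17.1% held a CHR motif, 33.8% a CCAAT box and 1.86% an E2F motif in these 250 bases. Such matches describe letters and not bound factors. In the transcript listed for *Kmt5b* (ENSMUSG00000045098, chromosome 19, 3768033 to 3808835), the TSS region began 612 and 144 bases downstream of the RefSeq start sites, and it covered 308 nt of non-coding exon sequence and 92 nt of intron. The listed start of *L3mbtl3* also lay 116 bases downstream of its nearest RefSeq start site. *Kmt5a* has 3 RefSeq start sites, of which the first, shown above, is the listed start, and the others lie 5569 and 6774 bases downstream inside the region counted as gene body. For *Phf8* and *L3mbtl2* the listed and the RefSeq start were the same base, for *Kmt5c* they were 12 bases apart, and for *Phf2* 234 bases apart with the RefSeq start inside the TSS region. The authors retained the isoform with the highest TSS value of each gene.

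In Ctrl MuSCs the methyltransferase genes had the highest mean gene body values of the 7. This did not hold in every library, since *Kmt5c* (12.6 TPM) was below *Phf2* (13.1 TPM) in Ctrl replicate 3. It did not hold for TSS regions either, where *Phf8* was above *Kmt5c* in every Ctrl library. Gene body values per length descended from *Kmt5a* with 43.7 ± 2.70 TPM (SD, n = 3) through *Kmt5b* with 34.8 ± 3.98 TPM and *Kmt5c* with 24.2 ± 10.7 TPM to *Phf2* with 16.9 ± 3.39 TPM, *L3mbtl2* with 14.3 ± 2.91 TPM, *L3mbtl3* with 5.78 ± 1.16 TPM and *Phf8* with 5.34 ± 0.695 TPM. *Kmt5a* lay above 86.1% of the tested genes and *Phf8* above 19.9%. Among neighbours in this order, only *Kmt5a* and *Kmt5b*, and *L3mbtl2* and *L3mbtl3*, had ranges over the 3 libraries that did not overlap. In Kmt5bsKO MuSCs *Kmt5b* (38.5 ± 3.84 TPM) and *Kmt5a* (37.5 ± 3.62 TPM) overlapped, a gap separated *Kmt5a* from *Kmt5c* (17.6 ± 4.16 TPM), and the order below was the same.

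**Figure D1:**
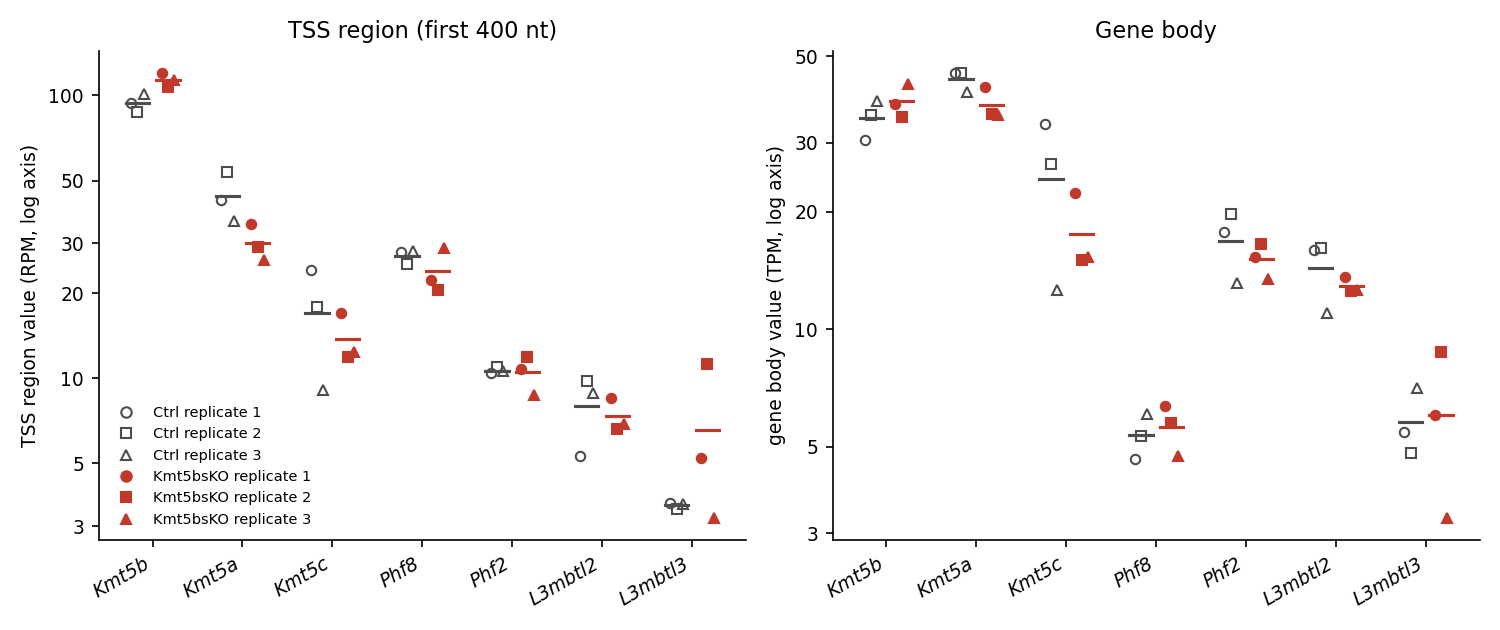
Values of the 7 genes in each of the 6 libraries, in the TSS region (left, RPM) and in the gene body (right, TPM), both on log axes. Points are libraries (open grey for Ctrl, filled red for Kmt5bsKO, one symbol per replicate) and lines are group means. In the TSS region the Kmt5bsKO libraries lie above the Ctrl libraries for *Kmt5b* and below them for *Kmt5a*, and in the gene body the groups overlap for all 7 genes.

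None of the 7 genes changed at an adjusted p under 0.1 in limma, whether by TSS region, gene body or pausing index (TSS RPM divided by gene body TPM). Of 12451 autosomal genes tested 1.66% were called for the TSS region and 2.99% for the gene body, or 1.63% and 2.95% with the genes of X and Y added, as was done for *Phf8*, and 0% of 11698 genes were called for the pausing index, so 0 of 7 is close to the background. The groups did not overlap for 2 of the 7 in the TSS region, against 15.6% of all genes, and for 0 of the 7 in the gene body, against 21.4%. Calls over all genes in the TSS region were 116 higher and 91 lower, and 104 higher and 122 lower with each library centred on its median. At an unadjusted p under 0.05 there was 1 of the 7 in the TSS region (*Kmt5a*), 0 in the gene body and 1 in the pausing index (*L3mbtl3*), against 11.0%, 15.9% and 3.86% of all genes. The median log2 fold change of the 7 was -0.083 for TSS regions and -0.13 for gene bodies, against 0.081 and 0.023 over all genes tested. Fold changes are Kmt5bsKO over Ctrl on the scale of log2(value + 0.5), where changes of weakly transcribed genes come out too small. Fewer cells that transcribe a gene and less transcription per cell cannot be told apart in these bulk libraries.

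The TSS region of *Kmt5b*, which encodes the main H4K20 dimethyltransferase, held 93.7, 87.3 and 102 RPM in Ctrl replicates 1, 2 and 3, against 120.0, 107 and 113 RPM in the Kmt5bsKO replicates of the same numbers. All 3 Kmt5bsKO libraries were above all 3 Ctrl libraries, as they were at 10.2% of the tested genes. The log2 fold change was 0.27 (95% interval -0.16 to 0.69, limma adjusted p = 0.721).

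The gene body of *Kmt5b*, 40402 nt of which 6.6% is exonic, held 30.6, 35.4 and 38.5 TPM in Ctrl, against 37.8, 35.0 and 42.6 TPM in Kmt5bsKO libraries. The groups overlapped, and the lowest value was that of Ctrl replicate 1. The log2 fold change was 0.14 (95% interval -0.19 to 0.47, limma adjusted p = 0.706), so a gene body level below 0.88 times that of Ctrl lay outside the interval. Nascent reads over the whole gene remain if a deletion takes out an exon without stopping transcription, and which exon the floxed allele loses is not given in the sources used here. The values therefore do not check the genotype. *Gm16066* is annotated antisense to *Kmt5b*, and the authors counted sense reads only.

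*Kmt5a* (ENSMUSG00000049327, chromosome 5, 124439930 to 124462308) encodes the only monomethyltransferase of H4K20. Its TSS region held 42.9, 53.4 and 36.0 RPM in Ctrl, against 35.1, 29.1 and 26.2 RPM in Kmt5bsKO libraries. All 3 Kmt5bsKO libraries were below the Ctrl libraries, although Kmt5bsKO replicate 1 was within 1 RPM of Ctrl replicate 3, and 5.33% of the tested genes had this pattern. The log2 fold change was -0.53 (95% interval -1.06 to -0.0097), a fold of 0.691, which did not pass over all genes tested (limma adjusted p = 0.440). Each value rests on 44 to 190 reads. The TSS region takes in 86 nt of exon 1 and 314 nt of intron, and a part of exon 1 is coding (10 nt).

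The gene body of *Kmt5a* held 45.2, 45.3 and 40.6 TPM in Ctrl, against 41.7, 35.5 and 35.3 TPM in Kmt5bsKO libraries. Kmt5bsKO replicates 2 and 3 were the lowest of the 6, while replicate 1 was above Ctrl replicate 3. The log2 fold change was -0.22 (95% interval -0.52 to 0.075, limma adjusted p = 0.471). It was below 0 whichever library was left out, with a range of -0.30 to -0.18, and so was that of the TSS region, with a range of -0.67 to -0.39.

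*Kmt5c* (ENSMUSG00000059851, chromosome 7, 4740115 to 4747514) encodes the enzyme that makes most H4K20me3, and it varied widely among Ctrl libraries. Its gene body held 33.6, 26.5 and 12.6 TPM in Ctrl, against 22.4, 15.1 and 15.3 TPM in Kmt5bsKO libraries. The lowest and the highest of the 6 values both came from Ctrl, so the log2 fold change of -0.37 had a wide interval (-1.19 to 0.46, limma adjusted p = 0.696). It was -0.77 without Ctrl replicate 3 and -0.081 without Ctrl replicate 1. In the TSS region the values were 24.2, 17.8 and 9.09 RPM in Ctrl, against 17.1, 11.9 and 12.4 RPM in Kmt5bsKO libraries, in the same order of libraries within Ctrl (log2 fold change -0.21, 95% interval -0.97 to 0.55, limma adjusted p = 0.903). Among the 3 libraries with high Y-linked values, Ctrl replicate 3 was below both Kmt5bsKO libraries in both regions, and among those with low values both Ctrl libraries were above Kmt5bsKO replicate 3. With the Y-linked level as a term, the log2 fold change of *Kmt5c* was 0.062 for the TSS region and -0.095 for the gene body.

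The balance between the methyltransferases was also compared within each library. The TSS value of *Kmt5a* over that of *Kmt5b* was 0.457, 0.612 and 0.354 in Ctrl and 0.292, 0.272 and 0.232 in Kmt5bsKO libraries, without overlap, which follows from the opposite order of the groups in both genes. The same ratio over gene bodies was 1.48, 1.28 and 1.06 in Ctrl and 1.10, 1.01 and 0.829 in Kmt5bsKO libraries, with an overlap. The gene body ratio of *Kmt5c* to *Kmt5b* ranged from 0.328 to 1.10 in Ctrl and from 0.359 to 0.592 in Kmt5bsKO libraries. These ratios were not tested.

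**Figure D2:**
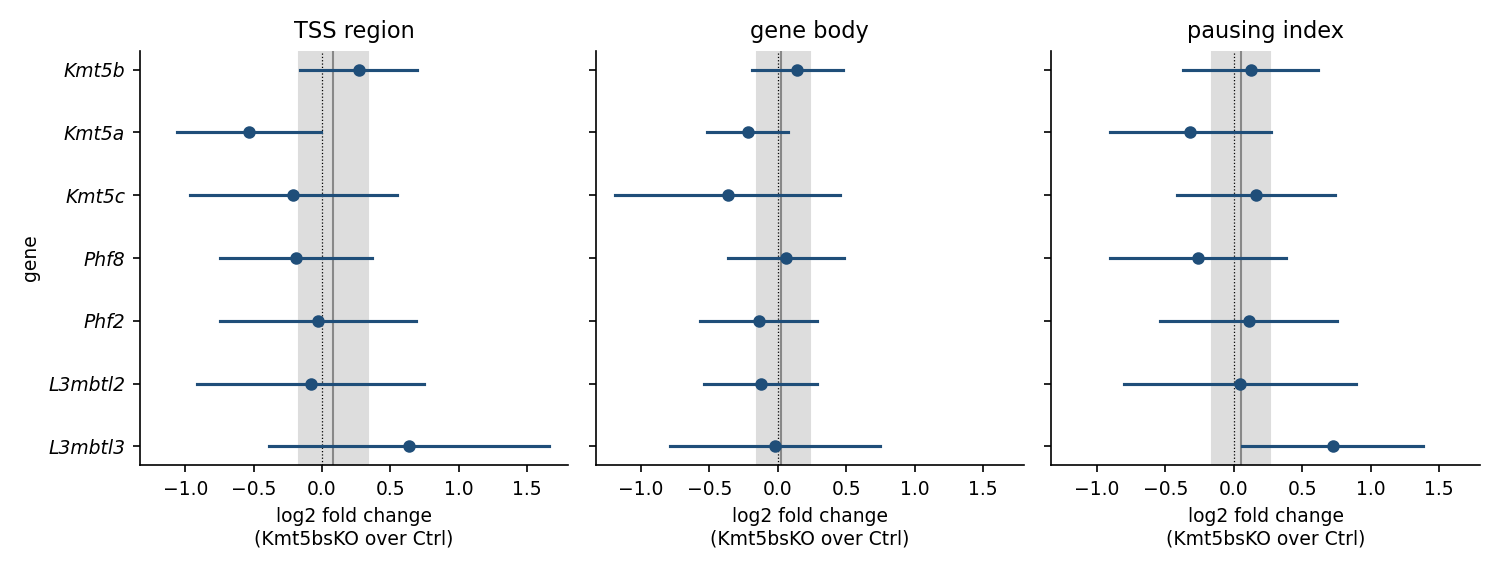
Log2 fold change (Kmt5bsKO over Ctrl) of the 7 genes in the TSS region, the gene body and the pausing index. Points are limma estimates and bars are 95% intervals from 3 libraries per group, the grey line is the median of all autosomal genes tested, and the grey band runs from their lower to their upper quartile (-0.17 to 0.34 in the TSS region, -0.15 to 0.24 in the gene body and -0.16 to 0.26 in the pausing index). Only the intervals of *Kmt5a* in the TSS region and of *L3mbtl3* in the pausing index leave out 0.

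The demethylase genes had no call and differed from each other in where their polymerases stood. *Phf8* (ENSMUSG00000041229, chromosome X, 151520672 to 151625833) encodes a JmjC enzyme that removes H4K20me1. Its TSS region held 27.8, 25.3 and 28.2 RPM in Ctrl, against 22.3, 20.5 and 29.0 RPM in Kmt5bsKO libraries. Kmt5bsKO replicate 3 was the highest of the 6 and the other Kmt5bsKO libraries were the lowest (log2 fold change -0.19, 95% interval -0.75 to 0.36, limma adjusted p = 0.871 with genes of X and Y added). The gene body, 104761 nt long, held 4.66, 5.32 and 6.05 TPM in Ctrl, against 6.35, 5.73 and 4.72 TPM in Kmt5bsKO libraries (log2 fold change 0.060, 95% interval -0.36 to 0.48, limma adjusted p = 0.921). There Kmt5bsKO replicate 3 was instead next to the lowest. The gene body values of *Phf8* were highest in the libraries with high Y-linked values, Ctrl replicate 3 and Kmt5bsKO replicates 1 and 2. With the Y-linked level as a term, the log2 fold change of the *Phf8* gene body was -0.10. A part of sex in these values was not tested.

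*Phf2* (ENSMUSG00000038025, chromosome 13, minus strand, 48801750 to 48871119) encodes a related JmjC protein. It held 10.4, 10.9 and 10.6 RPM in its TSS region in Ctrl and 10.8, 11.9 and 8.74 RPM in Kmt5bsKO libraries. The Ctrl values lay inside the Kmt5bsKO range, with a log2 fold change of -0.032 (95% interval -0.75 to 0.69, limma adjusted p = 0.984). Its gene body held 17.7, 19.7 and 13.1 TPM in Ctrl, against 15.3, 16.5 and 13.4 TPM in Kmt5bsKO libraries, and the Ctrl range took in all 3 Kmt5bsKO values (log2 fold change -0.14, 95% interval -0.57 to 0.28, limma adjusted p = 0.784). The TSS value of *Phf8* was 1.72 to 3.32 times that of *Phf2* in the 6 libraries, while its gene body value was 0.263 to 0.461 times that of *Phf2*.

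The MBT gene *L3mbtl2* (ENSMUSG00000022394, chromosome 15, 81663889 to 81688315), whose product belongs to a variant Polycomb repressive complex with MGA, PCGF6 and E2F6, held 15.9, 16.1 and 11.0 TPM in the gene body in Ctrl and 13.6, 12.5 and 12.6 TPM in Kmt5bsKO libraries. The Ctrl range again took in the other group (log2 fold change -0.13, 95% interval -0.54 to 0.29, limma adjusted p = 0.806). Its TSS region held 5.33, 9.77 and 8.90 RPM in Ctrl, against 8.52, 6.6 and 6.90 RPM in Kmt5bsKO libraries, from 10 to 47 reads (log2 fold change -0.083, 95% interval -0.91 to 0.74, limma adjusted p = 0.972).

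*L3mbtl3* (ENSMUSG00000039089, chromosome 10, minus strand, 26274471 to 26373956) had the lowest mean TSS value of the 7 in both groups, from 6 to 19 reads per library. They were 3.63, 3.45 and 3.60 RPM in Ctrl, against 5.24, 11.2 and 3.22 RPM in Kmt5bsKO libraries. Kmt5bsKO replicate 2 stood far above the other libraries and replicate 3 was the lowest of all. The log2 fold change of 0.64 (95% interval -0.39 to 1.66, limma adjusted p = 0.726) was 0.19 without Kmt5bsKO replicate 2. The gene body held 5.46, 4.81 and 7.07 TPM in Ctrl, against 6.02, 8.75 and 3.29 TPM in Kmt5bsKO libraries, with Kmt5bsKO replicates 2 and 3 at the ends of the range (log2 fold change -0.023, 95% interval -0.79 to 0.75, limma adjusted p = 0.988). These gene body values were highest in the libraries with high Y-linked values, Ctrl replicate 3 and Kmt5bsKO replicates 1 and 2. A part of sex in them was not tested.

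The pausing index divided the 7 genes. In Ctrl it was 5.13 ± 0.732 (SD, n = 3) for *Phf8*, higher than at 93% of the tested genes, and 2.72 ± 0.307 for *Kmt5b*. It was 1.004 ± 0.154 for *Kmt5a*, and the other 4 genes had means between 0.584 and 0.705, while the median tested gene had 1.47 to 1.61 in a library. Since the 2 regions are scaled separately, an index of 1 has no absolute meaning, and for *Kmt5b* and *L3mbtl3* the TSS region began downstream of the RefSeq start sites.

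Between genotypes the groups did not overlap in the pausing index of 3 of the 7 genes, 2 with Kmt5bsKO above and 1 below, against 9.02% of all genes tested (5.93% above and 3.09% below). The index of *L3mbtl3* was 0.665, 0.717 and 0.509 in Ctrl and 0.870, 1.28 and 0.979 in Kmt5bsKO libraries, all above. Its log2 fold change of 0.72 (95% interval 0.064 to 1.38) did not pass over all genes tested (limma adjusted p = 0.9997). It ranged from 0.57, without Kmt5bsKO replicate 2, to 0.85 with 1 library left out.

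The index of *Kmt5c* was 0.721, 0.673 and 0.721 in Ctrl and 0.762, 0.790 and 0.813 in Kmt5bsKO libraries, all above the narrow Ctrl range, although the levels in both regions varied widely. These values rest on only 18 to 100 TSS reads and 69 to 344 gene body reads per library. The log2 fold change of the *Kmt5c* index was 0.16 (95% interval -0.42 to 0.74, limma adjusted p = 0.9997). The index of *Kmt5a* was 0.947, 1.18 and 0.887 in Ctrl and 0.842, 0.819 and 0.743 in Kmt5bsKO libraries, all below (log2 fold change -0.32, 95% interval -0.91 to 0.27, limma adjusted p = 0.9997). For *Kmt5b*, *Phf8*, *Phf2* and *L3mbtl2* the groups overlapped, with log2 fold changes from -0.26 for *Phf8* to 0.12 for *Kmt5b*.

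**Figure D3:**
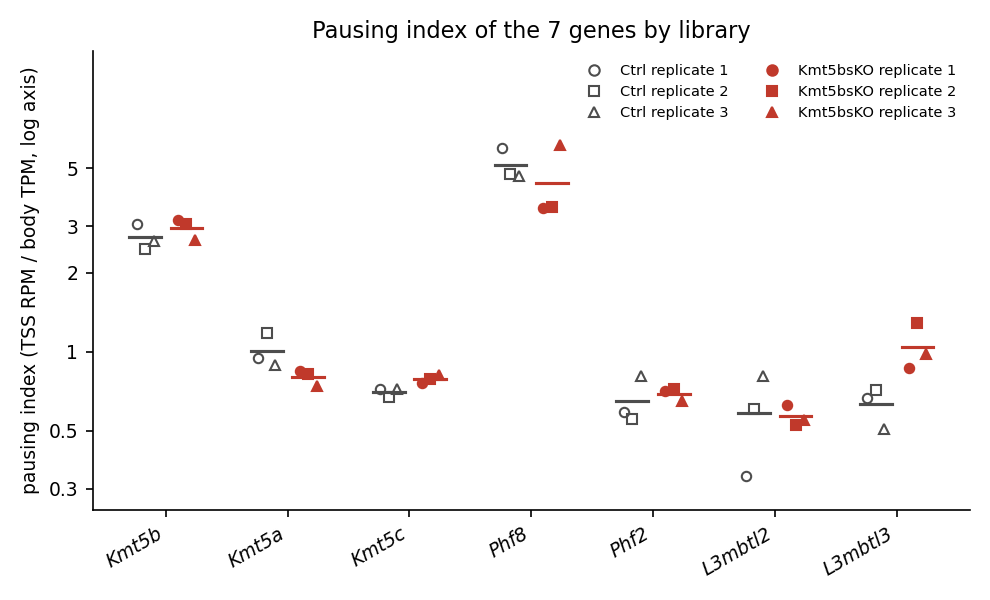
Pausing index of the 7 genes in each library (TSS RPM over gene body TPM, log axis). Points are libraries, open grey for Ctrl and filled red for Kmt5bsKO, and lines are group means. *Phf8* and *Kmt5b* have the highest indices in all 6 libraries, and the groups do not overlap for *Kmt5a*, *Kmt5c* and *L3mbtl3*.

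The genes whose gene body values went up and down most like those of the methyltransferase genes over the 6 libraries were also found, among 10189 genes with a mean of at least 5 TPM. For *Kmt5b* they were *Prkar1a* (Pearson r = 0.97, Spearman rho = 0.89), *Stk17b* (r = 0.96, rho = 0.94) and *Tpd52l1* (r = 0.96, rho = 0.71). For *Kmt5a* they were *Tmem219*, *Ankrd16* and *Toe1* (r from 0.987 to 0.994, rho from 0.94 to 1), and for *Kmt5c* *Aida*, *Mrpl21* and *Rfxank* (r from 0.992 to 0.997, rho from 0.94 to 1). With 6 libraries such values are common: 41 genes had an r over 0.9 with *Kmt5b*, 102 with *Kmt5a* and 164 with *Kmt5c*. All points share the libraries and their scaling.

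A wider set of 36 genes of the H4K20 pathway was counted beside the 7. It held genes for other demethylases, readers, the proteins that degrade KMT5A, and partners of readers, enzymes and MBT proteins. Several of the 36 genes were called lower in Kmt5bsKO MuSCs, and none was called higher. Of the 35 that passed the filter, 5 were called lower by TSS region and 8 by gene body, 10 genes in all, at an adjusted p under 0.1 in limma. Over all autosomal genes 0.731% were called lower and 0.932% higher in the TSS region, and 1.38% lower and 1.61% higher in the gene body. The median log2 fold change of the 35 was -0.071 for TSS regions and -0.15 for gene bodies, and 22 of 35 were below 0 in each. Those above 0 were 37.1% of the 35 in each, against 58.2% of all autosomal genes tested for TSS regions and 53.8% for gene bodies. The gene left out, *L3mbtl4*, is listed at 0 RPM in the TSS region of every library.

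The readers of methylated H4K20 held 4 of the genes that fell. *Ncapg2*, a condensin II subunit, had a gene body value of 16.6, 15.3 and 11.7 TPM in Ctrl, against 5.13, 5.77 and 7.36 TPM in Kmt5bsKO libraries. The groups were far apart, with a log2 fold change of -1.19 (95% interval -1.65 to -0.73, limma adjusted p = 0.0655), and its TSS region fell as well (log2 fold change -1.32, limma adjusted p = 0.0817). The condensin II subunit *Ncapd3* fell in the gene body (log2 fold change -0.65, limma adjusted p = 0.0982) and had a log2 fold change of -0.14 in the TSS region (limma adjusted p = 0.929).

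*Orc1*, the origin recognition subunit that binds H4K20me2, held 7.29, 8.06 and 7.82 TPM in Ctrl, against 3.14, 4.93 and 3.99 TPM in Kmt5bsKO libraries. This was a log2 fold change of -0.88 in the gene body (95% interval -1.32 to -0.44, limma adjusted p = 0.0873), and in the TSS region, where the groups overlapped, it was -0.59 (limma adjusted p = 0.628). *Fancd2*, a DNA crosslink repair gene, fell in the gene body from 6.61 ± 1.16 to 2.87 ± 0.305 TPM (SD, n = 3 each; log2 fold change -1.07, limma adjusted p = 0.0655). Its TSS region missed the threshold with a log2 fold change of -1.40 (limma adjusted p = 0.103).

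Other readers of the methylated mark had no call. *Trp53bp1*, which encodes 53BP1, held 6.54, 10.3 and 7.58 RPM in its TSS region in Ctrl and 11.8, 11.2 and 11.96 RPM in Kmt5bsKO libraries. All Kmt5bsKO libraries were above all Ctrl libraries, as they were at 10.2% of the tested genes (log2 fold change 0.51, 95% interval -0.23 to 1.26, limma adjusted p = 0.676). The gene body of *Trp53bp1* had a log2 fold change of 0.16 (limma adjusted p = 0.616). *L3mbtl1*, a further MBT gene, held 1.58, 1.55 and 2.03 TPM in the gene body in Ctrl and 2.91, 3.34 and 2.19 TPM in Kmt5bsKO libraries (log2 fold change 0.57, 95% interval 0.062 to 1.08, limma adjusted p = 0.265). These gene body values rest on only 54 to 99 reads each.

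The list for unmethylated H4K20, a state found on newly made histones, held 3 genes. Of these, *Mms22l* encodes the partner of the reader TONSL and not a reader itself. *Mms22l* fell in the gene body from 11.5 ± 0.311 to 5.70 ± 0.792 TPM (SD, n = 3 each; log2 fold change -0.96, limma adjusted p = 0.0643). *Bard1*, the partner of BRCA1, fell in the TSS region, from 54.5, 37.4 and 69.3 RPM in Ctrl to 26.9, 29.1 and 17.5 RPM (log2 fold change -1.11, limma adjusted p = 0.0738) and missed the threshold in the gene body (log2 fold change -0.71, limma adjusted p = 0.126). *Tonsl* was not called in either region.

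Among the 7 genes for the turnover of KMT5A, those for the proteins that recognise it in S-phase fell in both regions. *Dtl*, the substrate receptor, held 19.2, 17.2 and 20.4 TPM in the gene body in Ctrl and 8.14, 11.96 and 9.79 TPM in Kmt5bsKO libraries (log2 fold change -0.91, 95% interval -1.31 to -0.50, limma adjusted p = 0.0746), and its TSS region had a log2 fold change of -1.18 (limma adjusted p = 0.0776). *Pcna*, the replication clamp, held 94.0, 75.9 and 89.3 TPM in the gene body in Ctrl and 25.2, 44.4 and 43.3 TPM in Kmt5bsKO libraries (log2 fold change -1.23, 95% interval -1.77 to -0.69, limma adjusted p = 0.0744), and in the TSS region a log2 fold change of -0.99 (limma adjusted p = 0.0869). The core ligase genes *Ddb1*, *Cul4a* and *Cul4b*, and *Skp2* and *Fzr1* of other ubiquitin ligases, were not called.

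Among the 6 partners of KMT5B and KMT5C, *Cbx5*, which encodes HP1α, fell in the TSS region from 40.9 ± 3.24 to 21.2 ± 4.05 RPM (SD, n = 3 each; log2 fold change -0.94, limma adjusted p = 0.0976), with a gene body log2 fold change of -0.27 (limma adjusted p = 0.380). *Rbl1*, which encodes the pocket protein p107, fell in the gene body from 14.02 ± 1.18 to 8.51 ± 1.10 TPM (log2 fold change -0.69, limma adjusted p = 0.0948). None of the 7 partners of PHF2 and the MBT proteins was called, with medians of 0.0645 for TSS regions and 0.091 for gene bodies, and neither were the 3 other demethylase genes. Of these, *Kdm7a*, a relative of *Phf8* and *Phf2*, held 4.23, 6.91 and 8.45 TPM in Ctrl, against 11.2, 9.89 and 6.94 TPM in Kmt5bsKO libraries (log2 fold change 0.51, 95% interval -0.15 to 1.17, limma adjusted p = 0.450). In both regions *Kdm7a* was highest in the libraries with high Y-linked values, Ctrl replicate 3 and Kmt5bsKO replicates 1 and 2. Its TSS log2 fold change of 0.55 turned to -0.26 with the Y-linked level as a term.

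**Figure D4:**
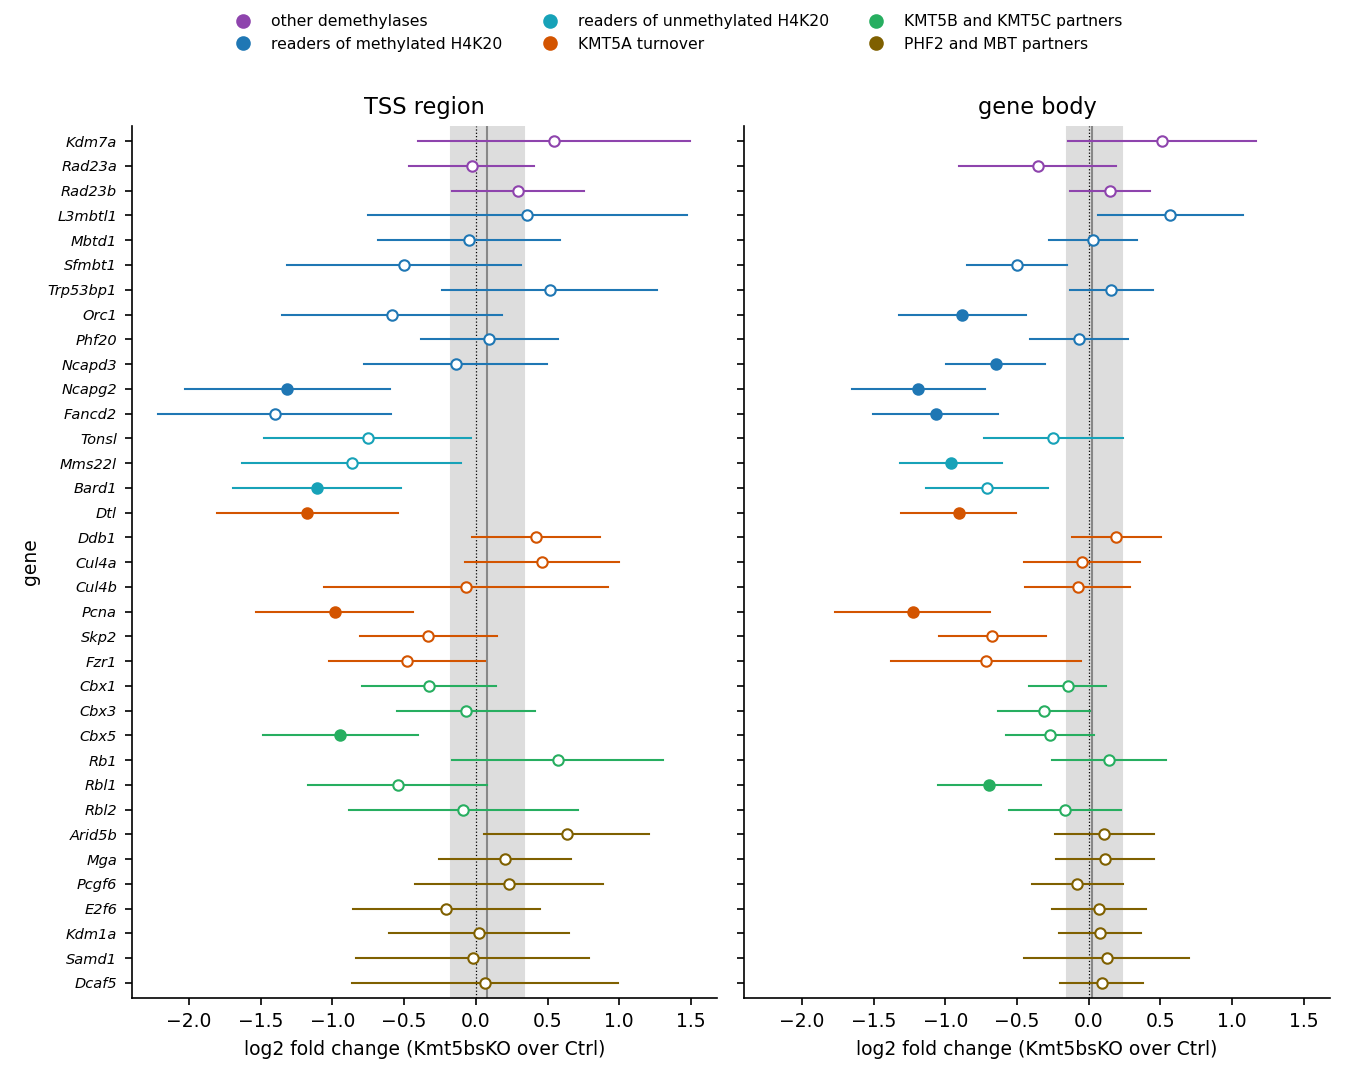
Log2 fold change (Kmt5bsKO over Ctrl) of the 35 other pathway genes that passed the filter, in the TSS region (left) and the gene body (right). Bars are 95% intervals, colours give the list, filled points were called at an adjusted p under 0.1, and the grey line and band are the median and quartiles of all autosomal genes. All filled points, 5 on the left and 8 on the right, lie below 0.

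**Figure D5:**
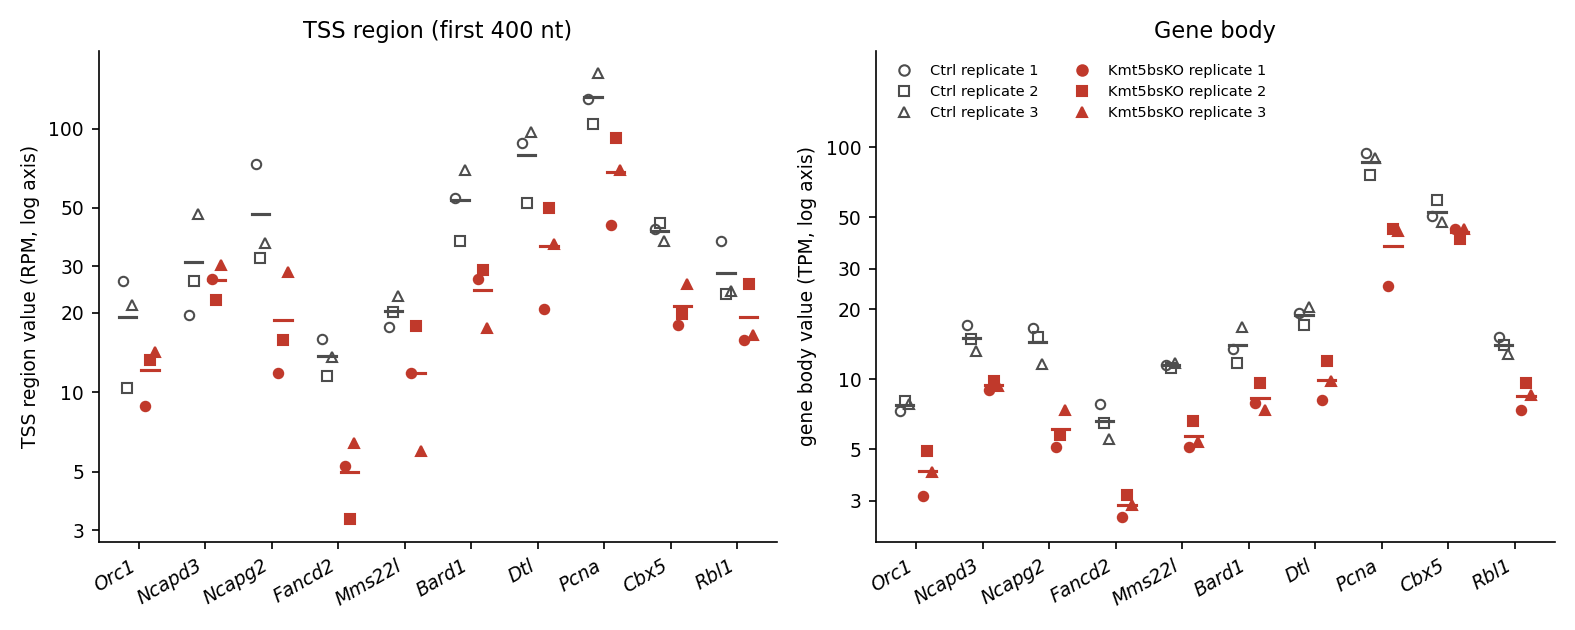
Values of the 10 pathway genes called lower in at least 1 region, by library, in the TSS region (left, RPM) and the gene body (right, TPM), on log axes. Points are libraries (open grey for Ctrl, filled red for Kmt5bsKO) and lines are group means. On the right the Kmt5bsKO libraries lie below the Ctrl libraries for all 10, from 2.56 to 3.17 TPM against 5.52 to 7.82 TPM for *Fancd2*, for example. The genes were chosen by their calls, so this separation is no separate evidence. In the gene body the groups did not overlap, in either direction, for 21.4% of all genes tested.

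Genes of proliferation moved in the same direction. Of 10 such genes (*Mki67*, *Top2a*, *Ccna2*, *Ccnb1*, *Cdk1*, *Plk1*, *Aurka*, *Bub1*, *Cenpe* and *Kif11*), all 10 had log2 fold changes below 0 in both regions, with 6 called by gene body and 3 by TSS region. Of 12451 autosomal genes, 5747 were below 0 and 1.38% were called lower in the gene body. In the TSS region these were 5202 and 0.731%. The gene body of *Ccnb1* barely moved (log2 fold change -0.020, limma adjusted p = 0.967). The summed gene body values of the 10 genes were 550, 486 and 357 TPM in Ctrl, against 241, 253 and 278 TPM in Kmt5bsKO libraries. The part of these genes in the falls of the pathway genes was not tested. With 1 library left out, the number of calls in limma moved for the pathway genes and for all 12451 genes alike. For gene bodies 0 pathway genes, and 0 of all genes, were called without Ctrl replicate 1 or without any single Kmt5bsKO library (11 to 13 pathway genes had an unadjusted p under 0.05). There were 2 pathway genes among 261 calls without Ctrl replicate 2, and 11 among 836 without Ctrl replicate 3. For TSS regions 0 pathway genes among 1 call were found without Ctrl replicate 1, 0 among 16 without Kmt5bsKO replicate 1, 1 among 46 without Kmt5bsKO replicate 3, 2 among 270 without Ctrl replicate 3, 3 among 132 without Kmt5bsKO replicate 2 and 5 among 408 without Ctrl replicate 2. The gene body log2 fold changes stayed below 0 for all 10 genes in these fits, from -1.33 to -1.08 for *Ncapg2*, from -1.06 to -0.89 for *Mms22l* and from -1.04 to -0.78 for *Dtl*, for example.

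Promoters are shown for *Orc1* and *Dtl*, 2 of the genes that fell, to set beside those of the methyltransferases. They are again the 250 bases before the RefSeq start site (GRCm38.p6), with the same motifs in capitals.
*Orc1*, chr4:108579204-108579453, plus strand: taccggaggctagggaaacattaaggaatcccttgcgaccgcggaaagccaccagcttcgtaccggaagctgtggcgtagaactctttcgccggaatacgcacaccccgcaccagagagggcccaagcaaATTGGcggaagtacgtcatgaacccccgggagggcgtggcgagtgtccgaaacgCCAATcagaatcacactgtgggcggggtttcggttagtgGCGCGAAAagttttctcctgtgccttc
*Dtl*, chr1:191575545-191575794, minus strand: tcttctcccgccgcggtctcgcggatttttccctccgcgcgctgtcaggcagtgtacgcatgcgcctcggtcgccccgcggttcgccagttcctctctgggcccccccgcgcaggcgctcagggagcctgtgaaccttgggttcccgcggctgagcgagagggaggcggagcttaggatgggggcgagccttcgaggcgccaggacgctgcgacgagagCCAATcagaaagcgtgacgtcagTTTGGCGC

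Both held an E2F motif close to the start site. Of the 10 genes that fell, 9 were matched to a RefSeq promoter, and 5 of these held an E2F motif (*Orc1*, *Ncapg2*, *Bard1*, *Dtl* and *Rbl1*). The motif stood in 1 of the 22 matched pathway genes without a call (*Cbx3*), and in 1 of the 7 genes of the set, *Kmt5c*, against 1.86% of all promoters. A CCAAT box stood in 4 of the 9 and in 3 of the 7, against 33.8%. No test was made, because the 10 genes had been chosen by their values.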

How the data were processed

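Per the labels and methods, the authors used Trimmomatic 0.39 for trimming, STAR 2.6.1d for alignment to GRCm38 (multimapping reads kept at 1 random position) and Picard 2.18.16 to drop duplicates. They counted sense reads in the TSS region and the gene body of isoforms of protein-coding genes and listed 1 isoform per gene. The values deposited for the TSS region are RPM, although the methods name TPM, and those deposited for the gene body are TPM. Both are scaled to a fixed total, so a change in total transcription cannot appear. Reads were recovered from the value steps, with at least 99.992% of TSS values in each library within 0.1 reads of a whole number. No per-sample column was left unused.

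Genes with means of at least 0.5 in both regions were tested as log2(value + 0.5) with limma 3.58.1 in R 4.3.3 (lmFit, eBayes with a trend, genotype as the only term, Benjamini-Hochberg, adjusted p under 0.1), over 12451 autosomal genes, or 12877 with X and Y for *Phf8* and *Cul4b*. The pausing index was tested as a log2 ratio for genes above 0 in all libraries. edgeR 4.0.16 and DESeq2 1.42.0 on recovered reads, other pseudocounts, filters, scalings and terms, a replicate block and leaving out each library were alternatives. The fits were tested on simulated data. Intervals are 95%. Sequences, lists and plots were handled in Python 3.11.15.

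The 7 genes and the lists of other pathway genes and markers were chosen with earlier results of these data known. Named pathway genes are those called by limma, with the settings above, in the TSS region, the gene body or the pausing index, and *Kdm7a*, *L3mbtl1*, *Trp53bp1*, *Orc1*, *Dtl* and *Pcna* whatever their values. For likeness, the 3 genes with the highest r per methyltransferase gene were named. Coordinates are those listed by the authors. All 7 listed transcripts have the same coordinates in GENCODE M21, from which exons were taken. RefSeq promoters were matched by symbol for all 7 genes and 31 of the 36 others.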

Additional observations from a re-analysis of the deposited data

How the results depend on the processing

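None of the 7 genes was called under any alternative, so the absence of calls did not depend on the settings tried. Directions of small fold changes did. With the Y-linked level as a term and X and Y added, log2 fold changes turned to 0.062 for *Kmt5c* in the TSS region, to -0.10 for *Phf8* and 0.011 for *L3mbtl2* in the gene body, and to 0.0081 for *Phf8*, -0.071 for *Phf2* and -0.20 for *L3mbtl2* in the pausing index. The gene body value of *L3mbtl3* turned to 0.019 with edgeR and to 0.017 with DESeq2, and the pausing index of *L3mbtl2* to -0.0075 with each library centred on its median. Over the alternatives that kept all libraries, the gene body log2 fold change of *L3mbtl3* ranged from -0.44 to 0.019. With 1 library left out, these ranges crossed 0: -0.59 to 0.091 for *Kmt5c*, -0.12 to 0.088 for *Phf2* and -0.33 to 0.075 for *L3mbtl2* in the TSS region, -0.028 to 0.17 for *Phf8* and -0.32 to 0.32 for *L3mbtl3* in the gene body, and -0.31 to 0.33 for *L3mbtl2* in the pausing index. The cause was not tested.

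The counts of calls over all genes moved more. In the TSS region, where 207 were called, there were 64 at an adjusted p under 0.05, 0 with low values kept and 0 with no trend in eBayes (1448 and 1292 by unadjusted p under 0.05), and 567 with the Y-linked term. In the gene body, where 372 were called, there were 1 at an adjusted p under 0.05, 748 with edgeR, 1295 with DESeq2 and 1060 with the Y-linked term. A pseudocount of 0.5 in both regions gave 1 call in the pausing index. With 1 library left out the counts ranged from 1 to 408 in the TSS region and from 0 to 836 in the gene body, and were 0 for the pausing index throughout (356 to 624 genes at an unadjusted p under 0.05).

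For the other pathway genes the same alternatives were run, which was chosen after seeing the data. In the TSS region 5 were called, with 0 at an adjusted p under 0.05, 3 with a pseudocount of 0.1, 0 with low values kept and 0 with no trend (9, 9, 7 and 6 at an unadjusted p under 0.05), 6 with edgeR and 6 with DESeq2. In the gene body 8 were called, with 0 at an adjusted p under 0.05 (13 unadjusted), 5 with low values kept, 11 with edgeR and 12 with DESeq2. With 1 library left out they ranged from 0 to 5 and from 0 to 11. *Kdm7a* turned to -0.26 in the TSS region with the Y-linked term, and in the pausing index *Kdm7a* turned to -0.038 when centred and to -0.48, *L3mbtl1* to 0.43, *Ncapg2* to 0.055 and *Mms22l* to -0.27 with that term. With 1 library left out the range crossed 0 for *Ncapd3* in the TSS region (-0.42 to 0.21) and in the pausing index for *Kdm7a* (-0.33 to 0.43), *Orc1* (-0.070 to 0.68), *Ncapg2* (-0.36 to 0.17), *Fancd2* (-0.51 to 0.041) and *Mms22l* (-0.13 to 0.50).

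The replicate numbers are not stated to pair the libraries. Same-numbered libraries deviated from their group means with correlations of -0.03, -0.13 and -0.16 in the TSS region and -0.15, -0.17 and -0.33 in the gene body. Deviations within so small a group depend on each other, so these values cannot settle whether libraries were paired. With the replicate block 0 genes were called in the TSS region (1141 at an unadjusted p under 0.05) and 0 in the gene body (1441), with 0 and 0 of the other pathway genes (7 and 11 unadjusted). Among the 7 genes *L3mbtl3* had the fewest TSS reads, 6 to 19 per library, and *L3mbtl1*, with 5 to 12, had fewer still.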
